A study of Mus musculus with 6 samples.

Results

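The 10 genes followed here are regulators of blood progenitor fate, namely Gfi1, Gfi1b, Myb, Myc, Mycn, Bcl11a, Lmo2, Tal1, Zeb2 and Id2, among 22180 genes measured in a mouse leukaemia line. They were listed by name with earlier results of these data known, and the array row that stands for each gene was chosen by measured signal, as the row annotated with that symbol alone that had the highest mean over all 6 arrays. Such a row existed for 9 of the 10. Zeb2 had 2 rows, each annotated with a further gene symbol, so it has no value here. Myb and Bcl11a had 2 rows each, and the other 7 had 1. The Myb row used averaged 11.36 on the log2 scale against 7.20 for its other row, and the Bcl11a row used averaged 8.47 against 3.73.

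The cells are a PU.1-low acute myeloid leukaemia (AML) line, grown from a leukaemic URE-/- mouse, which lacks an upstream regulatory element of the PU.1 gene Spi1. All 6 samples come from this line and all carry the deletion, so the line is 1 leukaemia and has no unmutated counterpart here. The 3 DB2313 samples received 330 nM of DB2313, a small molecule designed to inhibit PU.1, for 24 h. The 3 vehicle samples received an equal volume of water for 24 h. The medium of both groups held serum and conditioned supernatants of WEHI and BHK cells. The labels call the samples biological replicates but do not say whether cultures were started separately, so each p-value reflects only how far these arrays scatter.

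The 10 genes act at branch points of blood formation. GFI1 and GFI1B are related zinc finger repressors that recruit the demethylase LSD1 and histone deacetylases, GFI1 in stem cells and granulocyte precursors and GFI1B mainly in red cell and megakaryocyte precursors. MYB keeps progenitors dividing and immature and is required by many acute myeloid leukaemias, while MYC and MYCN drive growth and division together with MAX. TAL1 and LMO2 sit in a shared DNA-binding complex of stem cells and the red cell lineage, BCL11A and ZEB2 are zinc finger factors needed in lymphoid and dendritic cell development, BCL11A also represses fetal globin genes, and ID2 blocks the DNA binding of E proteins. PU.1 and GFI1 are known to oppose each other in the choice between macrophage and granulocyte fate.

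Markers of the labelled cell type were mostly bright. Among the 7 markers of granulocyte-monocyte progenitors and blood cells, the granule protease genes Elane, Prtn3 and Ctsg had vehicle means of 13.05, 12.46 and 12.52, the granule peroxidase gene Mpo 9.90 and the stem cell factor receptor gene Kit 8.84. Cd34 was dim at 4.59, and Ptprc, the pan-leukocyte gene for CD45, was dim at 3.32, where the median of all genes was 5.17. The Ptprc value rests on 1 row, and whether that row measures the main transcript was not tested. Probe sets differ in their response, so these signals do not rank transcripts. In cultures, fewer cells of a type and less RNA per cell cannot be told apart. None of the 35 measured markers of 7 other cell types passed limma's adjusted p of 0.05. An unadjusted p under 0.05 was found for 3, where 12.7% of all genes had one. These were 1 erythroid and 1 megakaryocyte marker, both lower with DB2313, and Mcpt8, a mast cell and basophil marker. Mcpt8, named after its value was seen, was higher by 0.28 (log2, limma adjusted p = 0.0745). Its vehicle mean, 7.72, was the highest of the mast cell and basophil markers. Averaged over the 3 measured erythroid markers, the signal lay between 5.23 and 5.27 on DB2313 arrays, against 5.35 to 5.45 on vehicle arrays, and over the 4 measured megakaryocyte markers between 4.33 and 4.42, against 4.32 to 4.56. The part of other cells in the results below was not tested.

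Promoter sequence is shown for the 3 regulators that passed the test, and for 3 that did not but whose window holds a motif of these factors. RefSeq windows of assembly GRCm38.p6, reaching from 250 bases before a transcription start to 50 after it, matched 8 of the 10 genes in 13 windows. Each window was searched on both strands for GAGGAA, a motif of PU.1, for AAATCA, bound by GFI1 and GFI1B, for AACGG, bound by MYB, for CACGTG, bound by MYC with MAX, and for AGATAA, bound by GATA factors. No searched motif overlapped another in these windows. Stretches are 5′ to 3′ on the gene's strand and end at the last base before the start, except that of Mycn, which ends 121 bases before it. Capitals mark motif matches.
Gfi1, chr5:107725806-107725905, minus strand: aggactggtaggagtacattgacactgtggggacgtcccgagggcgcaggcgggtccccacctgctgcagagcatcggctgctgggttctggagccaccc
Gfi1b, chr2:28621983-28622082, minus strand: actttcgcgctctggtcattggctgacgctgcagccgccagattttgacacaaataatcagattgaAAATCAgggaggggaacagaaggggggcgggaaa
Myb, chr10:21160985-21161084, minus strand: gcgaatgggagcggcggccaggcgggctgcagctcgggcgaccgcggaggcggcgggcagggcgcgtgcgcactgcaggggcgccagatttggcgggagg
Bcl11a, chr11:24080595-24080694, plus strand: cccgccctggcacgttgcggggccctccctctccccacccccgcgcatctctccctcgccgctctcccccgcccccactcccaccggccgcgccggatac
Mycn, chr12:12941957-12942006, minus strand: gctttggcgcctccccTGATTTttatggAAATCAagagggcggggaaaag
Tal1, chr4:115056206-115056425, plus strand: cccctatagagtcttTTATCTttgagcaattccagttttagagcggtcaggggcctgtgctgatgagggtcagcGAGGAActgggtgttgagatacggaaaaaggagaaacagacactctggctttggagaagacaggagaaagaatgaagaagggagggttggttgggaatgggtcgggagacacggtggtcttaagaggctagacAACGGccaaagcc
The windows of Gfi1, Myb and Bcl11a held none of the 5 motifs, which says only that these letters are not in these stretches. The Id2 window, not shown, held none either, and Id2 did not pass. The shown regulators that did not pass were picked for holding a motif, so these stretches cannot relate motifs to the test result. Myc and Lmo2 had no window. The Gfi1b window held AAATCA once, 34 bases before the start, and the Mycn window held it on both strands, 154 and 142 bases before the start. AAATCA occurs in 14.0% of all 32851 windows of the table, and in 2 of the 13 windows of the regulators. One Tal1 window held GAGGAA 146 bases before the start, AACGG 13 before and AGATAA in reverse 205 before. GAGGAA occurs in 28.3% of all windows and in 5 of the 13, of which 4 belong to Zeb2 and 2 of those 4 overlap each other. AACGG occurs in 17.4% of all windows and 3 of the 13, of which 2 are the overlapping Zeb2 windows and hold the same site. AGATAA occurs in 11.2% and 1 of the 13, and CACGTG in 7.2% and 0 of the 13. G and C content overlapped between the regulators that passed and those that did not. The Myb window was 75.0% G and C with 40 CpG pairs, that of Bcl11a 63.0% with 23, and the 2 windows of Gfi1 were 58.0% each with 16 and 10. Among regulators that did not pass, the Id2 window was 63.3% with 21, the 2 Tal1 windows 64.3% with 22 and 50.7% with 11, that of Mycn 56.7% with 14 and that of Gfi1b 44.3% with 7. The medians over all windows were 52.7% and 7.

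DB2313 was compared with vehicle with limma on the deposited log2 signals, adjusting over all 22180 genes by the Benjamini-Hochberg method at 0.05. Of the 9 measured regulators, 3 rose with DB2313, namely Gfi1, Bcl11a and Myb, and 0 fell (4 had an unadjusted p under 0.05, as 12.7% of all genes had). Of all genes, 1.81% passed in either direction, 1.02% higher and 0.789% lower. The median log2 difference was 0.15 over the 9 regulators and -0.0024 over all genes, and the median absolute difference was 0.18 over the regulators and 0.079 over all genes. As the genes were named with results known, these counts are a description. The values of the 2 groups did not overlap for 7 of the 9, 5 of them higher with DB2313 and 2 lower, where 19.3% of all genes had groups that did not overlap.

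**Figure D1:**
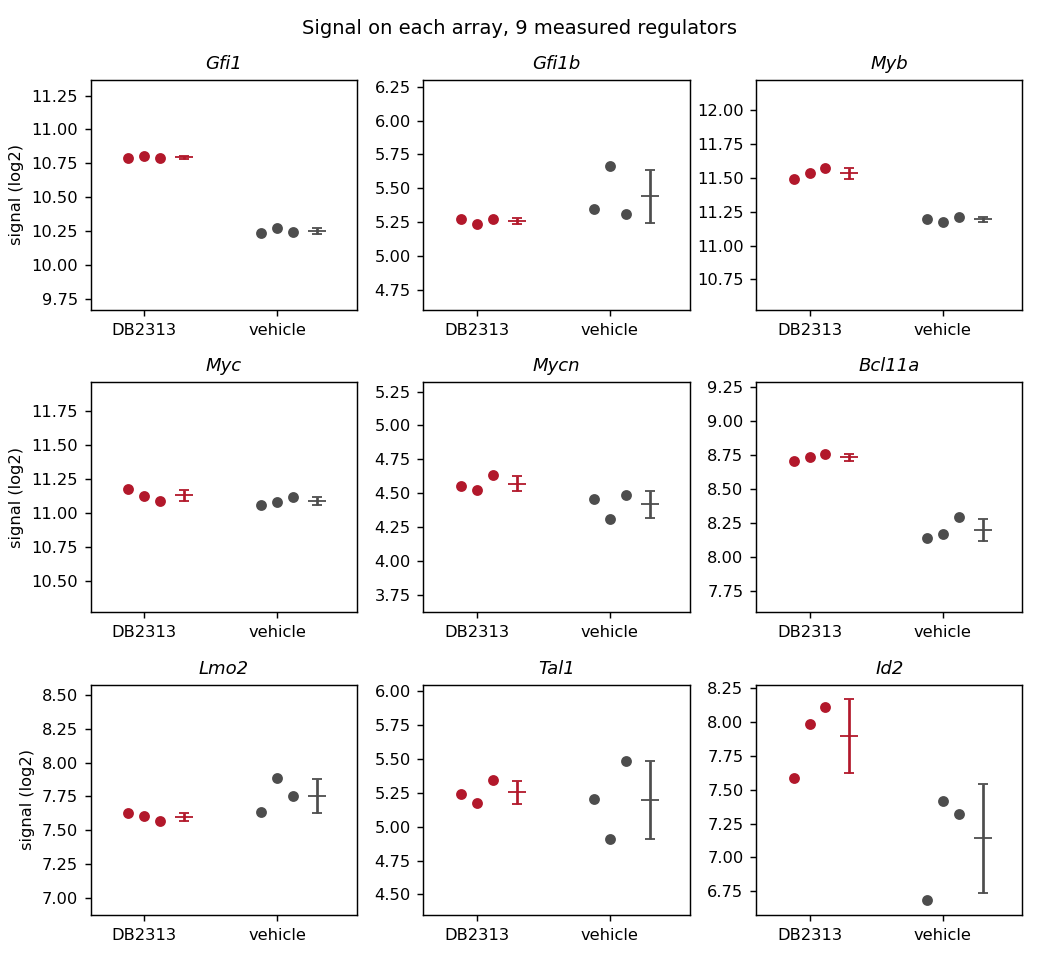
Signal (log2, vertical axis) of the 9 measured regulators on each array, DB2313 in red on the left and vehicle in grey on the right, each panel spanning the same number of log2 units. Points are arrays, and the bar beside them is the mean with the SD (n = 3). Gfi1 shows narrow groups, at 10.79 to 10.80 with DB2313 and 10.23 to 10.27 with vehicle, while Id2 has the widest spread, at 7.59 to 8.11 and 6.68 to 7.42.

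Among the GFI repressors, Gfi1 was higher with DB2313 on every array. Its signal was 10.79, 10.80 and 10.79 on DB2313 arrays, against 10.23, 10.27 and 10.24 on vehicle arrays. The arrays of a group lay within 0.04 of each other, and the lowest DB2313 value was 0.51 above the highest vehicle value. Gfi1 averaged 10.79 ± 0.01 with DB2313 and 10.25 ± 0.02 with vehicle (log2, SD, n = 3 each), a log2 difference of 0.54 (SE 0.06, 95% interval 0.41 to 0.67) or 1.46-fold higher, with a limma adjusted p of 0.00464. By p-value it ranked 66 among the 22180 genes.

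Its paralog Gfi1b did not pass. Gfi1b had 5.27, 5.24 and 5.27 on DB2313 arrays, against 5.35, 5.67 and 5.31 on vehicle arrays. All DB2313 values lay below all vehicle values, but vehicle replicate 2 stood above the other arrays of its group. The log2 difference was -0.18 (95% interval -0.41 to 0.05, limma adjusted p = 0.518), and it was -0.07 without vehicle replicate 2. Taking Gfi1 minus Gfi1b on each array, the DB2313 change of Gfi1 exceeded that of Gfi1b by 0.72 on the log2 scale, and the groups did not overlap. The exact permutation test over the 20 groupings of 3 against 3 arrays gave p = 0.10 (2-sided), the smallest this design allows. Adjusted over the 2 paralog pairs compared, it was 0.20. With Gfi1 wholly higher and Gfi1b wholly lower, the groups had to separate. This p was thus fixed by values already seen and adds nothing to them.

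**Figure D2:**
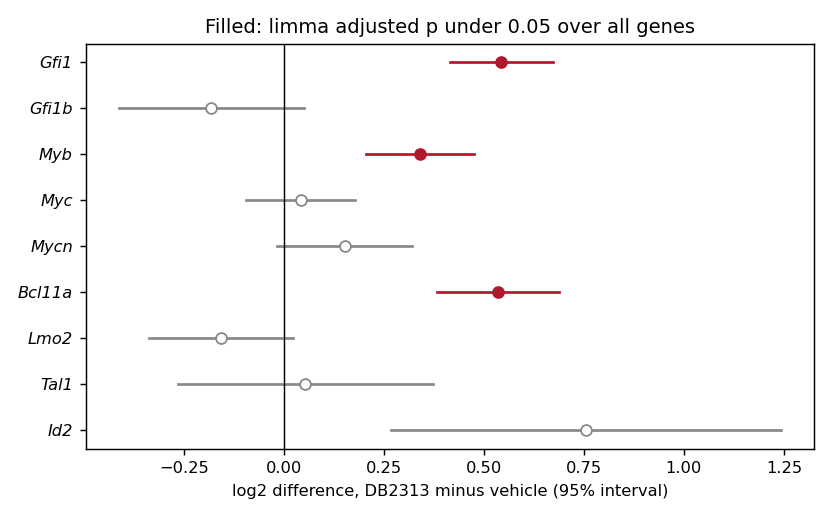
Log2 difference, DB2313 minus vehicle (horizontal axis), of the 9 measured regulators, with the 95% confidence interval from limma as a line (n = 3 arrays per group). Filled red points passed an adjusted p of 0.05 over all genes and open grey points did not. Gfi1 at 0.54, Bcl11a at 0.54 and Myb at 0.34 are filled, and Id2 lies farthest right at 0.76 with the widest interval.

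Among the growth regulators, Myb rose by a modest amount. Myb had 11.49, 11.54 and 11.58 on DB2313 arrays, against 11.20, 11.17 and 11.21 on vehicle arrays. The groups did not overlap and lay at least 0.28 apart, while arrays of a group lay within 0.08 of each other. The means were 11.53 ± 0.04 with DB2313 and 11.19 ± 0.02 with vehicle (log2, SD, n = 3 each), a log2 difference of 0.34 (SE 0.06, 95% interval 0.21 to 0.48) or 1.27-fold higher, with a limma adjusted p of 0.0336. Dropping any 1 of the 6 arrays ended the call (adjusted p 0.0939 to 0.143), while the difference stayed between 0.32 and 0.36. The other Myb row had 7.30, 7.39 and 7.32 on DB2313 arrays, against 6.93, 7.11 and 7.16 on vehicle arrays. That row had a log2 difference of 0.27, also without overlap, and did not pass (limma adjusted p = 0.185).

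Myc, the MYB target and growth driver, gave nearly level values. Myc had 11.17, 11.13 and 11.09 on DB2313 arrays, against 11.06, 11.08 and 11.12 on vehicle arrays. The groups overlapped, and the log2 difference was 0.04 with a 95% interval from -0.09 to 0.18 (limma adjusted p = 0.836). Mycn, the paralog best known from neural and early progenitor tissue, had 4.55, 4.53 and 4.63 on DB2313 arrays, against 4.46, 4.31 and 4.49 on vehicle arrays. The vehicle mean, 4.42, was under the all-gene median of 5.17. The groups did not overlap, with a log2 difference of 0.15 (95% interval -0.02 to 0.32, limma adjusted p = 0.445). On a scale with an offset of 32, which damps dim signals, that difference was 0.06, and without vehicle replicate 2 it was 0.10 on the log2 scale. The change of Myc minus that of Mycn was -0.11, with an exact permutation p of 0.20 (2-sided, 0.20 adjusted over the 2 pairs). It was -0.058 without vehicle replicate 2, -0.059 without DB2313 replicate 3 and -0.021 with the offset.

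Of the zinc finger repressors, Bcl11a rose about as much as Gfi1 in the row used. Bcl11a had 8.71, 8.73 and 8.76 on DB2313 arrays, against 8.14, 8.16 and 8.29 on vehicle arrays. The groups did not overlap and lay at least 0.41 apart. Bcl11a averaged 8.73 ± 0.03 with DB2313 and 8.20 ± 0.08 with vehicle (log2, SD, n = 3 each), a log2 difference of 0.54 (SE 0.07, 95% interval 0.38 to 0.69) or 1.45-fold higher, with a limma adjusted p of 0.00930. The other Bcl11a row, near the lower end of the scale, had 3.93, 3.90 and 3.41 on DB2313 arrays, against 3.67, 3.71 and 3.76 on vehicle arrays. In that row the groups overlapped and the log2 difference was 0.03 (limma adjusted p = 0.950), so the rise rests on 1 of the 2 rows. Without DB2313 replicate 3 the adjusted p of the bright row was 0.0531, and with any other array left out it was between 0.0201 and 0.0485.

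The TAL1-LMO2 complex genes did not pass in either direction. Lmo2, which bridges TAL1 to GATA factors, had 7.63, 7.60 and 7.57 on DB2313 arrays, against 7.63, 7.88 and 7.75 on vehicle arrays. The lowest vehicle value was 0.004 above the highest DB2313 value, so the groups touched almost exactly. The log2 difference was -0.16 (95% interval -0.34 to 0.02, limma adjusted p = 0.464), and -0.09 without vehicle replicate 2. Tal1, a helix-loop-helix factor of stem cells and the red cell lineage, had 5.24, 5.17 and 5.34 on DB2313 arrays, against 5.20, 4.91 and 5.49 on vehicle arrays. The DB2313 values lay inside the vehicle range, with a log2 difference of 0.05 (95% interval -0.27 to 0.37, limma adjusted p = 0.919) that turned to -0.091 without vehicle replicate 2.

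Id2 had the largest difference of the 9 and did not pass. Its signal was 7.59, 7.98 and 8.11 on DB2313 arrays, against 6.68, 7.42 and 7.32 on vehicle arrays. All DB2313 values lay above all vehicle values, by 0.17 at the closest, while vehicle replicate 1 lay well below the other vehicle arrays. Id2 averaged 7.90 ± 0.27 with DB2313 and 7.14 ± 0.40 with vehicle (log2, SD, n = 3 each), a log2 difference of 0.76 (SE 0.21, 95% interval 0.27 to 1.24) with a limma adjusted p of 0.169 over all genes. Without vehicle replicate 1 the difference was 0.53 (adjusted p = 0.260). The interval covers a single gene, and does not account for the number of genes tested.

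**Figure D3:**
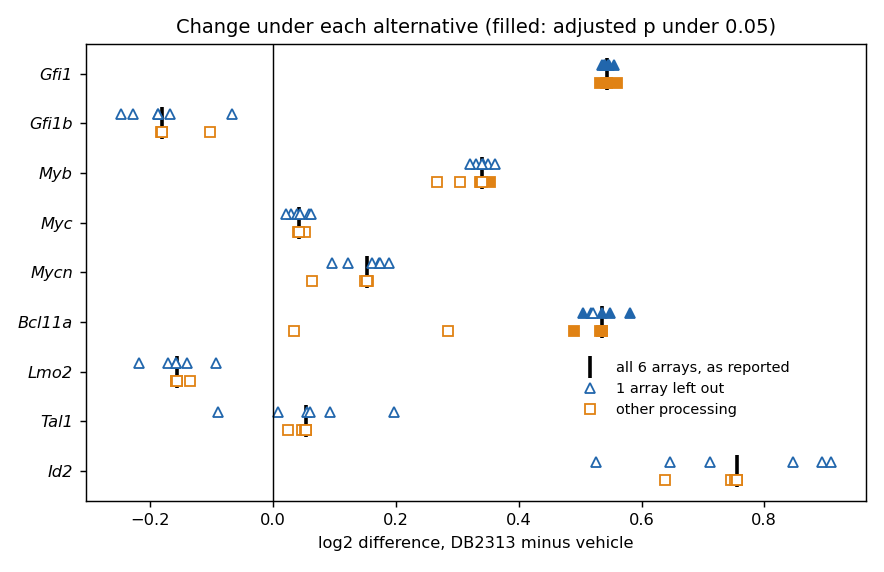
Log2 difference, DB2313 minus vehicle (horizontal axis), of each measured regulator as reported (black bar), with 1 array left out (blue triangles) and under other processing (orange squares), filled where the adjusted p was under 0.05; symbols at the same value cover each other. The symbols of Gfi1 stay between 0.53 and 0.56, those of Bcl11a reach down to 0.03 for its other row, and those of Id2 run from 0.53 to 0.91.

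The gene of the inhibited factor itself, Spi1, stands among the genes described as repressed by GFI1. Spi1 had 6.52, 6.49 and 6.50 on DB2313 arrays, against 6.79, 6.88 and 6.95 on vehicle arrays. The groups did not overlap, and the log2 difference was -0.37 (SE 0.06, limma adjusted p = 0.0342), and dropping any 1 array ended the call (adjusted p 0.0648 to 0.134). The fall in Spi1 and the rises in Gfi1, Bcl11a and Myb were measured on the same 6 arrays, and no test here bears on their order.

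Partners and targets of the 10 regulators were read from 9 lists in the same fit. Of 100 distinct measured genes, Spi1 alone passed, lower with DB2313, which is 1.00% against 1.81% of all genes, and 9 higher and 7 lower had an unadjusted p under 0.05, where 12.7% of all genes had one. The median log2 difference over the 100 genes was 0.002. Of 14 measured genes described as repressed by GFI1, 1 fell, 0 rose and 13 did not pass, with a median of -0.03. At an unadjusted p under 0.05, 3 of the 14 were lower and 0 higher, beside the same 12.7% of all genes. Among these, Cdkn1a, encoding the cell cycle inhibitor p21 and named after its value was seen, had -0.50 (limma adjusted p = 0.0776). None of 12 measured corepressors of GFI1 passed (1 higher at an unadjusted p under 0.05), with a median of 0.002. The scaffold gene Ajuba had 0.29 (adjusted p = 0.340), and Kdm1a, which encodes LSD1 and was named after its value was seen, 0.13 (adjusted p = 0.479).

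Lists around MYB and MYC had no gene past the threshold in limma, and their counts at an unadjusted p under 0.05 stand beside 12.7% of all genes. Of 9 MYB family genes and partners, 2 higher and 1 lower had an unadjusted p under 0.05, and Kmt2a, encoding a histone methyltransferase, had 0.26 (adjusted p = 0.0762). Of 10 measured genes described as MYB targets, 2 higher and 0 lower had an unadjusted p under 0.05, with a median of 0.05, and the cell cycle kinase gene Cdk6 had 0.24 (adjusted p = 0.136). In the MYC network list, 10 of 11 genes had a difference above 0, with a median of 0.13 over the 11. Of them, 1 had an unadjusted p under 0.05. That gene was Mxi1, an antagonist of MYC, with 0.28 (adjusted p = 0.211). Of 15 measured genes described as MYC targets, 12 had a difference below 0 with a median of -0.08, and 2 lower had an unadjusted p under 0.05. The mitochondrial chaperone gene Hspd1 had -0.16 (adjusted p = 0.316). These medians stand beside -0.0024 over all genes and were not tested.

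The remaining lists held no gene past the threshold in limma either, and their unadjusted counts stand beside the same 12.7%. Among 13 TAL1-LMO2 partners, 2 higher and 1 lower had an unadjusted p under 0.05, and Ssbp2, which stabilises the LDB1 scaffold of that complex, had -0.25 (adjusted p = 0.139). Among 6 ID family and E protein genes, 0 had an unadjusted p under 0.05, and the closest relative by p, Id3, had -0.23 (adjusted p = 0.446). Among 13 relatives and corepressors of BCL11A and ZEB2, 1 higher had an unadjusted p under 0.05, the chromatin remodeller gene Chd4 of the NuRD complex, with 0.13 (adjusted p = 0.387).

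**Figure D4:**
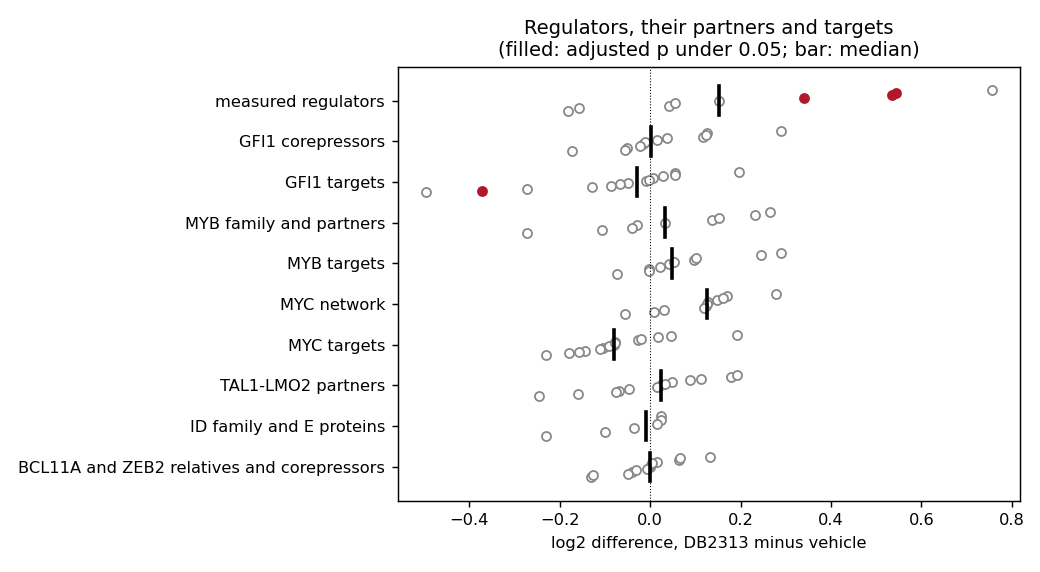
Log2 difference, DB2313 minus vehicle (horizontal axis), of the 9 measured regulators (top row) and of each measured gene in 9 lists of partners and targets, with black bars at the medians (n = 3 arrays per group). Red filled points passed an adjusted p of 0.05 over all genes. Besides Gfi1, Bcl11a and Myb, only Spi1 at -0.37, in the list of GFI1 targets, is filled.

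Genes whose values across the arrays resembled those of Gfi1 and Myb were searched for. Predicted genes, unnamed clones, small RNA genes and olfactory and vomeronasal receptor genes were left out. Resemblance was the root mean square difference of the 6 values after each gene's own mean was subtracted. For Gfi1 and for Myb, the genes with the smallest difference were taken. For Gfi1 these were Rab27a (0.022), a small GTPase of granule secretion, S1pr3 (0.024), a sphingosine phosphate receptor, and Igll1 (0.040), a gene of the B cell precursor receptor. Rab27a averaged 10.86 with DB2313 and 10.30 with vehicle, a log2 difference of 0.56. For Myb these were Esyt1 (0.023), a lipid transfer protein at membrane contacts, Fam83a (0.025) and Fndc3b (0.028), with log2 differences of 0.34, 0.35 and 0.38. The measure uses the same 6 arrays as the comparison, so it describes resemblance and nothing further.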

How the data were processed

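RNA of 6 samples was hybridised to Affymetrix arrays after whole-transcript labelling, per the labels' protocols. The submitters' processing notes name Affymetrix Expression Console, and in the sources used here the probe summary method is not given. The authors deposited log2 signals, judged as log2 from their range. Array medians lay between 4.77 and 4.82, so arrays had probably been normalized together, which would hide an overall shift. The number of arrays limits the precision.

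Of 41345 rows, 23521 had 1 gene symbol, 1814 had several and 16010 had no entry. The brightest single-symbol row of a gene was kept, for 22180 genes. Groups were compared in limma 3.58.1 (R 4.3.3), 2-sided, with Benjamini-Hochberg adjustment over all genes at 0.05. On simulated data for this comparison (22180 genes, 200 changed), 52.0% of genes changed by 0.5, 94.8% by 1 and 99.1% by 2 (log2) were recovered. The simulated scatter of a gene was drawn without regard to its signal, so these rates may not hold for bright or dim genes. Members and lists were chosen with earlier results of these data known, and lists are described by counts, not tested. Named genes are the members, Spi1, and from each list the genes past the threshold or the 1 with the smallest p. Also named are the 3 most like Gfi1 and Myb, and the progenitor markers. Cdkn1a, Kdm1a and Mcpt8 were named after their values were seen. Of 106 listed partners and targets 100 were measured. The paralog comparison was added after seeing the data. Alternatives were filters on dim genes (0.25 quantile, median), 2 rescalings (quantile, median), an offset of 32, a trended and robust prior, a replicate block, other rows of a gene, all rows, and each array left out.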

Additional observations from a re-analysis of the deposited data

How the results depend on the processing

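Gfi1 kept its direction and its call in all 15 alternatives, with log2 differences from 0.53 to 0.56 and adjusted p up to 0.0319. The filters, the trended prior, the replicate block and the testing of all rows could not change a gene's log2 difference. Averaging rows could not change that of Gfi1, which has 1 row. In those settings only the p-value could move, so a kept direction there carries no information. Myb kept its direction in all 16 and its call in 6, and Bcl11a its direction in 16 and its call in 13. With rows averaged per gene, 1 regulator passed instead of 3, since Myb had 0.30 (adjusted p = 0.0669) and Bcl11a 0.28 (adjusted p = 0.192). When 1 array was left out, 1 to 2 regulators passed, 136 to 187 genes passed instead of 401, and 0 partner and target genes passed instead of 1. Tal1, which did not pass, ranged from -0.091 to 0.20 with 1 array left out and turned negative without vehicle replicate 2. No other regulator changed sign. The count of genes past the threshold was 799 without genes below the median of signal, 830 with the offset of 32, 920 with the trended and robust prior and 142 with all rows tested. The count of partner and target genes was 2 without genes below the 0.25 quantile, 5 without those below the median, 6 with the offset, 9 with the trended prior, and 0 with all rows tested. With the replicate number as a block, 190 genes, 3 regulators and 0 partners and targets passed. The 3 were Gfi1, Bcl11a and, in place of Myb (adjusted p = 0.113), Id2 (adjusted p = 0.0326). Deviations of same-numbered samples from their group means correlated at 0.023, 0.078 and 0.008, all under 0.1. DB2313 replicate 1 and vehicle replicate 3 correlated best with each other (0.047), and the other samples with their own number. Whether same-numbered samples were handled together cannot be told from these values. The cause of these shifts was not tested. The change of Gfi1 minus that of Gfi1b ranged from 0.62 to 0.79 over all alternatives, and that of Myc minus that of Mycn from -0.14 to -0.021. Background was not measured, so the low signal of Mycn may understate a change. The same holds for Tal1 and Gfi1b, whose vehicle means lay just above the all-gene median.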
